A study of Ictalurus furcatus with 16 samples.

Results

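Testis RNA of the blue catfish (Ictalurus furcatus) was sequenced, and 4 males labelled age 4 were compared with 4 labelled age 2. These 8 libraries were taken by the age in their labels from a series of 16, which also holds 4 testes of age 7 and 4 of age 9. The labels give the ages without a unit, and the series names age 2 as the control group. No strain, treatment or pooling is given, and the replicates are labelled biological, so each library was read as 1 fish. The question was which transcripts differ between the testis of the younger control fish and that of fish at the next age sampled.

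Sperm are made in the testis of bony fishes inside cysts, in which Sertoli cells enclose a clone of germ cells that develops in step. Spermatogonia divide by mitosis, become spermatocytes that go through meiosis, and end as spermatids that build a flagellum around an axoneme of microtubules, dynein motors and radial spokes. Leydig cells between the tubules make androgens, and the tissue also holds peritubular muscle-like cells, vessels, macrophages and lymphocytes. RNA from a whole testis mixes all of these, so a change in level can follow from the number of cells of a type or from the RNA in each. Fewer cells of a type and less RNA per cell cannot be told apart here.

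Depth was similar in the 8 libraries. Between 5240318 and 8081160 fragments were assigned to a transcript in each. A difference in composition ran alongside age: nuclear ribosomal RNA took 28.3%, 14.8%, 22.2% and 19.8% of the assigned fragments in age 2 replicates 1 to 4 and 11.03%, 10.8%, 5.69% and 15.8% in age 4 replicates 1 to 4. Its part in the results was not tested. A fit without ribosomal RNA and mitochondrial genes called 974 higher and 1744 lower, against 1065 and 1914 with them. That fit leaves any difference that ran alongside ribosomal RNA in place. Levels are given as CPM (counts scaled to library size) scaled by TMM normalization. Differences are log2 fold changes, age 4 minus age 2, with their standard error (SE). A gene was called where edgeR's quasi-likelihood test gave an adjusted p under 0.05. The test used a model of all 16 libraries, with the spread between fish shared by all ages. Counts said to be on 8 libraries kept all 8 libraries of ages 2 and 4 in that model. A fit of those 8 libraries alone called 0 genes higher and 0 lower. Every call and adjusted p below therefore depends on the spread shared with the older ages. Age 2 replicate 1 lay far from the rest of its age, so the shared spread may understate the error of this comparison.

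Age 2 replicate 1 stood apart from the other age 2 testes, and this touches nearly every result. To place it without using it, genes were called from the other 7 libraries in the model of all ages, and its level was then read against the range of the age 4 libraries. Of 7303 such genes it lay on the age 2 side of that range in 1311 (17.95%), inside the range in 4331 (59.3%) and beyond it, on the side away from age 2, in 1661 (22.7%). Age 2 replicates 2, 3 and 4, each placed in the same way by fits that used neither it nor replicate 1, lay on the age 2 side in 91.6%, 94.7% and 93.0% of their genes. The mean level of 26 of 56 gene lists in age 2 replicate 1 fell inside the age 4 range, and in 19 lists it was the lowest of the 8 libraries. The count of each list is therefore given with this library and without it.

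**Figure D1:**
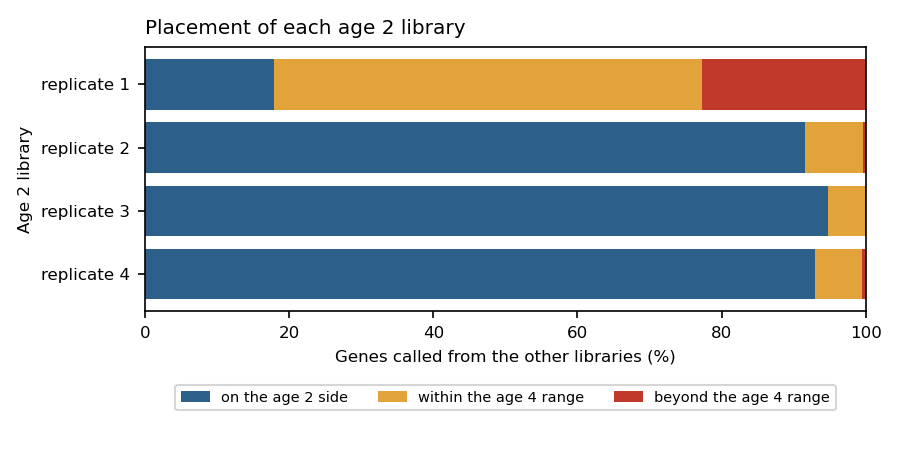
Place of each age 2 library among genes called from the other libraries. Bars give the percent of genes (horizontal axis) in which the library lay on the age 2 side of the age 4 range, within it or beyond it; replicate 1 lay on the age 2 side in 17.95% of genes and replicates 2 to 4 in 91.6% to 94.7%.

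Of 15979 genes tested, 1065 (6.66%) were higher and 1914 (12.0%) lower at age 4. Irrespective of p, all 4 libraries of age 4 lay above all 4 of age 2 in 4.94% of genes and below them in 4.47%. Leaving out age 2 replicate 1 gave 3875 higher (23.3%) and 3706 lower (22.3%) of 16597 genes. The counts of each list below are to be read against these shares. All 1065 higher genes and 1901 of the 1914 lower ones were called in the same direction in that fit, and 0 in the opposite one. As that fit shares the other libraries and calls many more genes, this overlap is a weak check. The calls on all 8 libraries also rested on others. Higher and lower genes numbered 133 and 503 without age 2 replicate 2, 44 and 114 without replicate 3, and 93 and 339 without replicate 4. They numbered 246 and 376 without age 4 replicate 1, 599 and 1095 without replicate 2, and 0 and 1 without replicate 3, so that every list count given below on 8 libraries came to 0 or 1 without age 4 replicate 3. With age 2 replicate 1 already left out, the omission of any further library of these ages kept 3206 to 3983 genes higher and 2963 to 3725 lower. That library was set aside because of its own values in these data. Its removal narrows the spread at age 2, so p-values without it may be too small, here and in the lists below. Genes with 1 annotated transcript were mostly called lower (694 higher and 1681 lower of 12078) and genes with several mostly higher (371 and 233 of 3901). Fragments shared by transcripts of 1 gene were not counted for either, so genes with several transcripts are less certain and are marked below.

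**Figure D2:**
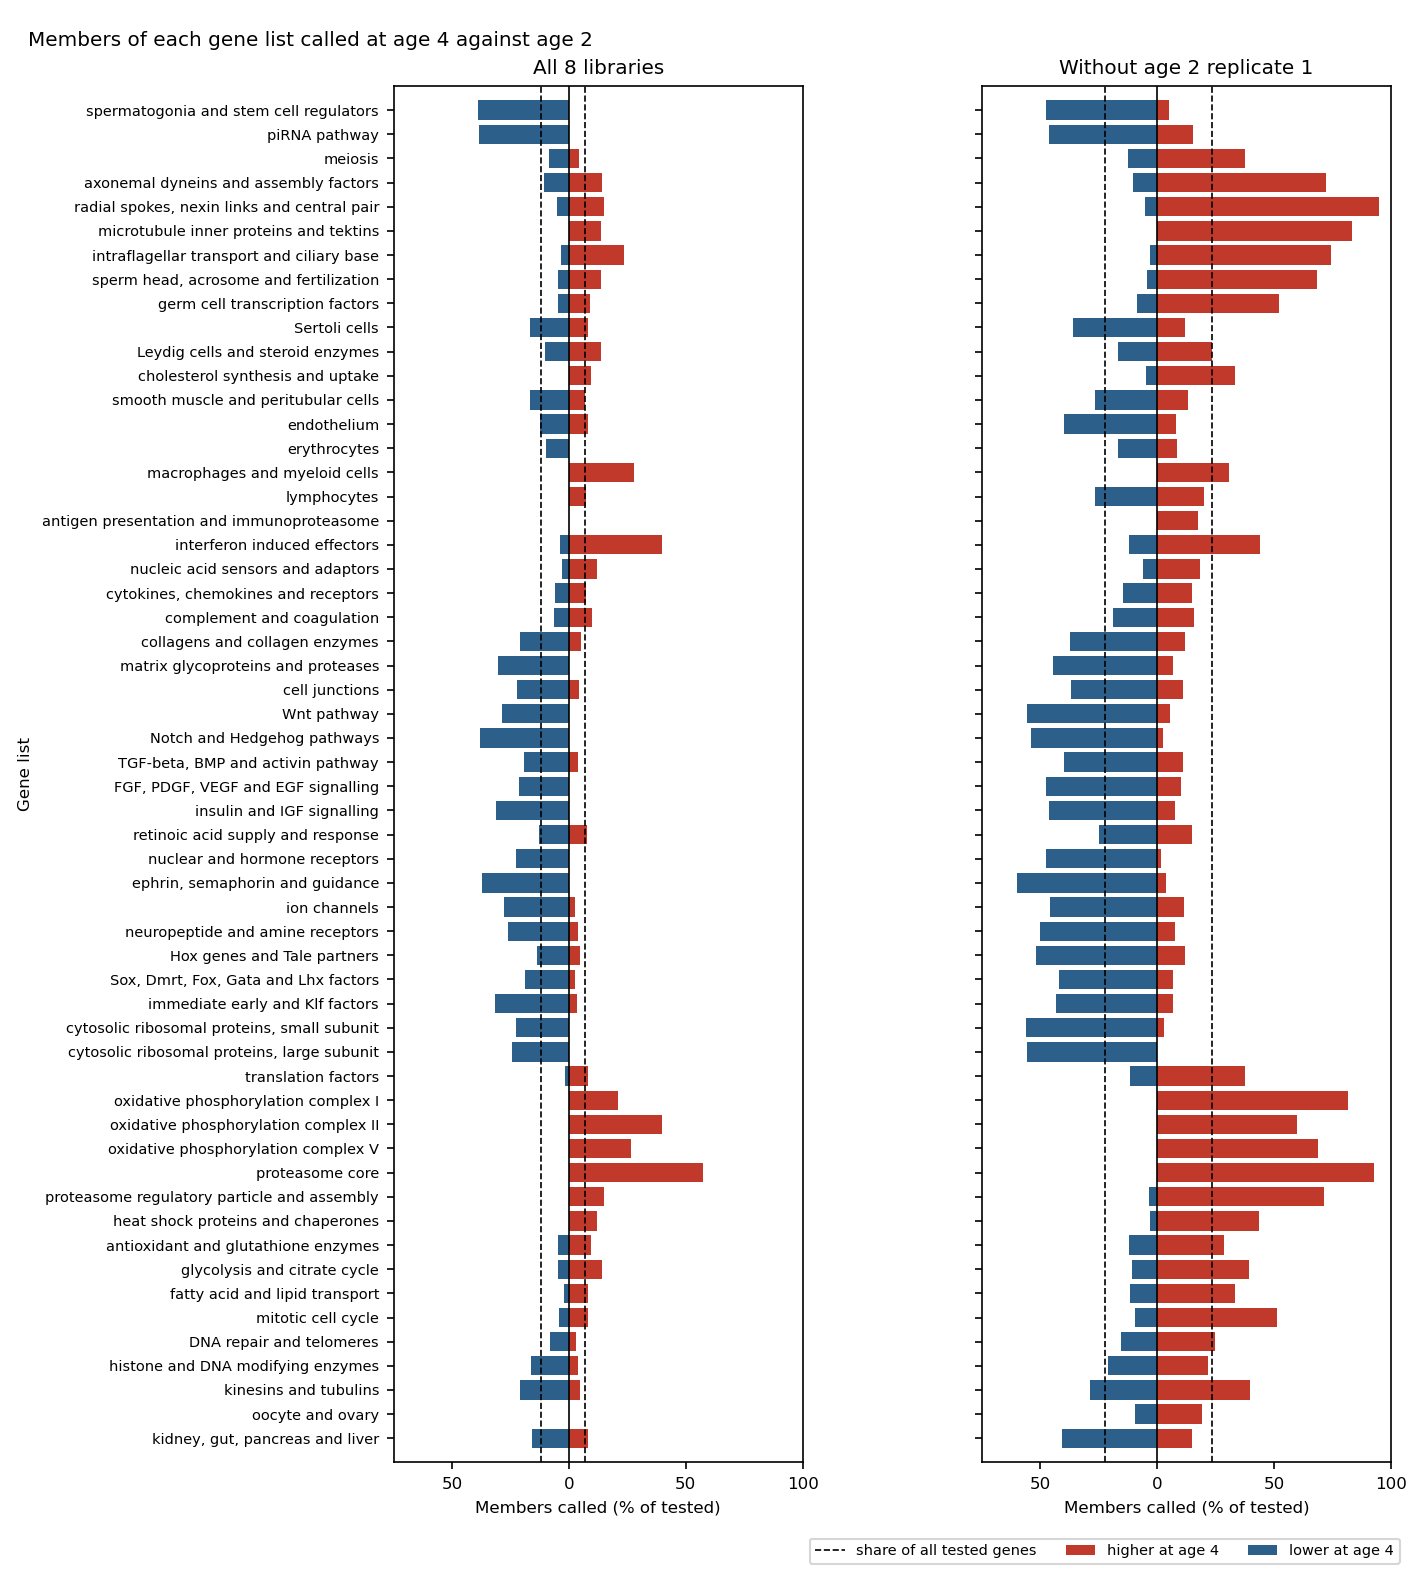
Percent of the tested members of each gene list called higher (red, to the right) or lower (blue, to the left) at age 4. Calls come from the model of all 16 libraries with all 8 of ages 2 and 4 kept (left panel). The right panel leaves out age 2 replicate 1. Dashed lines mark the shares among all tested genes, 6.66% and 12.0% on the left and 23.3% and 22.3% on the right; the proteasome core reached 8 of 14 members higher on the left.

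Regulators of spermatogonia and their stem cells, the earliest germ cells, were called in the lower direction where they passed. Of 18 tested, 7 (38.9%, against 12.0% of all genes) fell and 0 rose, with a median log2 fold change of -0.83 against -0.05 over all tested genes. Without age 2 replicate 1, 9 of 19 fell and 1 rose. The RNA-binding protein gene nanos2, which keeps male germline stem cells undifferentiated in mice, stood at 1.92, 93, 26.2 and 26.2 CPM in age 2 replicates 1 to 4 and at 1.42, 1.02, 2.37 and 9.47 CPM in age 4 replicates 1 to 4. Age 2 replicates 2 to 4 lay above every age 4 library, replicate 1 lay among them, and age 4 replicate 4 was the highest of its age. The fall was -3.36 ± 0.89 (log2, SE; edgeR's quasi-likelihood test, adjusted p = 0.023). Its relative nanos1 held 2.08, 98.7, 66 and 191 CPM at age 2 and 3.3, 6.25, 4.07 and 8.36 CPM at age 4 (-4.02 ± 0.84, adjusted p = 0.015). Here age 2 replicate 1 was the lowest of all 8.

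Other members of the list of spermatogonial regulators that passed moved the same way. The receptor gene ret, which binds the stem cell factor GDNF together with a co-receptor, fell by 1.78 on the log2 scale (5.29, 21.3, 22.7 and 12.2 CPM at age 2, 3.3, 4.34, 4.91 and 5.29 CPM at age 4). The Kit ligand gene kitlgb, which in mammals Sertoli cells supply to differentiating spermatogonia, had 2.56, 18.2, 23.8 and 20.7 CPM and 2.04, 2.17, 2.71 and 4.18 CPM, and its log2 fold change was -2.55 ± 0.59. The inhibitor of differentiation id4 was at 2.73 to 10.1 CPM at age 2 and 1.26 to 2.93 CPM at age 4 (-1.75 ± 0.44). In all 3 genes age 2 replicates 2 to 4 lay above every age 4 library, and replicate 1 lay inside the age 4 range or level with its top. Not every spermatogonial gene was lower. The GDNF co-receptor gfra1b was at 6.89 to 8.53 CPM at age 2 and 10.9 to 27.2 CPM at age 4, where all 4 libraries were higher, though it did not pass (1.09 ± 0.55, adjusted p = 0.16). The pluripotency factor sall4 (37.8 to 65.4 and 13.2 to 77.8 CPM) and zbtb16a (117 to 483 and 94.9 to 242 CPM) did not pass either.

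The piRNA pathway, which silences transposons in germ cells through small RNAs, had 5 of 13 members lower (38.5%, against 12.0% of all genes) and 0 higher (median -0.71). Among them rnf17 and tdrd1, Tudor-domain genes of the germ granule, showed the same order of libraries. For tdrd1 the levels were 120.4, 703, 616 and 388 CPM at age 2 and 92.3, 163, 72.2 and 157 CPM at age 4 (-1.92 ± 0.42), and for rnf17 they were 236, 1013, 816 and 629 CPM and 144, 237, 83.5 and 199.9 CPM (-2.02 ± 0.39). The methyltransferase gene henmt1, which protects the ends of piRNAs, held 9.62, 35.9, 44 and 37.5 CPM and then 8.02, 12.9, 6.61 and 11 CPM (-1.72 ± 0.39, adjusted p = 0.016). Age 2 replicates 2 to 4 lay well above the highest age 4 library in each of these genes, whereas replicate 1 lay inside the age 4 range. The Piwi genes themselves did not pass. piwil1 was at 15.4 to 42.5 CPM at age 2 and 29.7 to 42.3 CPM at age 4, and piwil2, counted over 11 transcripts, was at 3.68 to 12.6 and 5.93 to 10.2 CPM. Without age 2 replicate 1, 6 of the 13 were lower and 2 higher.

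Meiosis genes were split. Of 24 tested, 1 rose and 2 fell, and without age 2 replicate 1, 9 rose and 3 fell (medians 0.12 and 0.38). The topoisomerase-like gene spo11, which makes the DNA breaks that start recombination, was the riser, at 26.3, 29.9, 18.7 and 12.7 CPM at age 2 and 39.3, 43.7, 50.1 and 41.5 CPM at age 4. All 4 age 4 libraries lay above all 4 of age 2, by 0.995 ± 0.33 (adjusted p = 0.047). The recombinase dmc1, which acts on those breaks, held 147, 24.9, 18.5 and 9.03 CPM and 119, 112, 101 and 90.7 CPM. Its age 2 replicate 1 was the highest of the 8 libraries and the other age 2 testes the lowest, so it did not pass with that library (1.08 ± 0.57, adjusted p = 0.18), and without it the log2 fold change was 2.67. The synaptonemal complex gene sycp1 behaved alike, at 529 CPM in age 2 replicate 1, 57.2 to 146 CPM in the other 3 and 168 to 440.1 CPM at age 4. Among the fallers were mei4 (-2.21 ± 0.72, 4 transcripts), a partner of spo11 in making the breaks, and the helicase gene helb (-1.27 ± 0.31). The marker genes ddx4 and dazl of the germ line and sycp2 of the synaptonemal complex held too few counts to be tested.

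Genes of the sperm tail made up the widest gap between age 4 and age 2 replicates 2 to 4. The mean log2 CPM of 20 genes of radial spokes, nexin links and the central pair was 4.88, 2.19, 2.23 and 1.64 in age 2 replicates 1 to 4 and 5.35, 4.76, 5.58 and 3.84 in age 4 replicates 1 to 4. Age 2 replicate 1 thus lay inside the age 4 range, while the other age 2 libraries lay below all of it. On all 8 libraries 3 of the 20 rose and 1 fell (median 1.80), and without age 2 replicate 1, 19 rose and 1 fell. Likewise 3 of 22 tektins and proteins of the microtubule lumen rose and 0 fell on 8 libraries, and 20 of 24 rose without that one. For axonemal dyneins and their assembly factors the counts were 4 higher and 3 lower of 28, and then 21 higher and 3 lower of 29.

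Individual axoneme genes showed the pattern at different strengths. The radial spoke head gene rsph9, counted over 10 transcripts, held 760.0, 33.4, 30.7 and 21.1 CPM at age 2 and 1254, 471, 1218 and 153 CPM at age 4. It did not pass (1.87 ± 1.003, adjusted p = 0.18), and without age 2 replicate 1 its log2 fold change was 4.85. The dynein light chain gene dynlrb2 passed with all libraries, at 61.4, 20.7, 25.1 and 25.7 CPM and 127, 109.9, 182 and 75.4 CPM (1.895 ± 0.33, adjusted p = 0.012). There every age 4 library lay above every age 2 one, and replicate 1 was the highest of age 2. The same order held for ccdc40, which sets the spacing of dyneins along the axoneme (3 transcripts), at 1.76, 0.417, 0.291 and 0.334 CPM and 5.19, 3.57, 7.11 and 2.79 CPM (2.71 ± 0.60). The doublet microtubule gene nme7 was at 74.5, 15.2, 16.8 and 12.9 CPM and 93.1, 89.3, 110.3 and 41.4 CPM (1.49 ± 0.48, adjusted p = 0.042). Its age 4 replicate 4 lay below age 2 replicate 1, so the ages overlapped.

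The dynein heavy chains that passed went the other way. The inner arm gene dnah3 held 261, 333, 346 and 297 CPM at age 2 and 158, 195, 100.1 and 103 CPM at age 4 (-1.16 ± 0.28, adjusted p = 0.018). It is among the few sperm tail genes in which age 2 replicate 1 lay with its own age, and its log2 fold change without that library was -1.15. The outer arm heavy chain gene dnah9 fell too (-1.298 ± 0.34, 39.3 to 127 CPM at age 2 and 28.5 to 49 CPM at age 4). The related dnah9l fell with no overlap, from 17.8 to 57.3 CPM to 11.7 to 16.4 CPM (-1.66 ± 0.30). Close copies such as dnah9 and dnah9l can share reads and are uncertain for that reason.

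Of 30 genes of intraflagellar transport and the ciliary base, which carry cargo along a growing flagellum, 7 rose and 1 fell (median 1.04), and 23 of 31 rose without age 2 replicate 1. The transport gene ift172 (5 transcripts) was at 9.46, 6.67, 2.77 and 11.4 CPM and 24.5, 12.1, 37.1 and 12.1 CPM (1.503 ± 0.46), and bbs7, a subunit of the BBSome coat (3 transcripts), at 18.3, 5, 4.66 and 2.17 CPM and 37, 18.4, 47.3 and 18.2 CPM (2.002 ± 0.56). Age 4 lay above age 2 in every library of ift172, and in bbs7 age 4 replicates 2 and 4 lay at the level of age 2 replicate 1. For ift81 (4 transcripts) 4 counts at age 2 stood against 55 at age 4, too few for a firm fold. Among 22 genes of the sperm head, acrosome and fertilization, 3 rose and 1 fell, and 15 rose and 1 fell without age 2 replicate 1. The fiber gene odf2a of the sperm tail (10 transcripts) was at 20.8 CPM in age 2 replicate 1, 0.874 to 1.67 CPM in the other age 2 libraries and 20.1 to 47.1 CPM at age 4 (2.34 ± 0.77, adjusted p = 0.047). Among 22 germ cell transcription and cofactor genes 2 rose, mybl2a (1.35 ± 0.41, 2 transcripts) and hsf5 (1.45 ± 0.45, 6 transcripts), and 1 fell, the germ granule kinase stk31 (-1.42 ± 0.34), and without age 2 replicate 1, 12 of 23 rose and 2 fell.

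**Figure D3:**
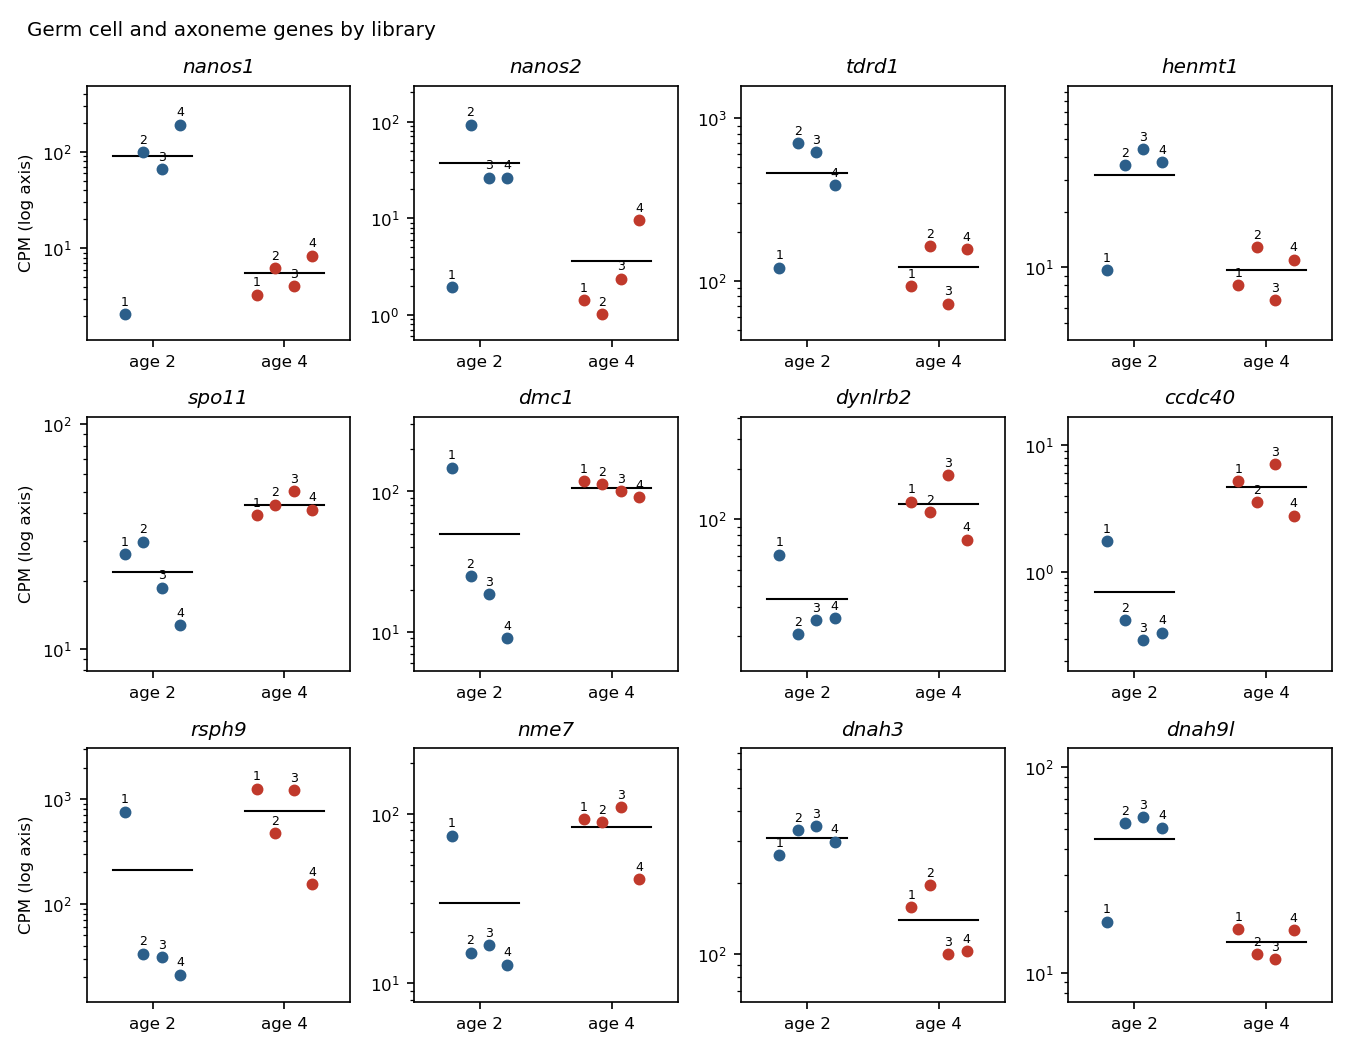
Level in CPM (log axis) of 12 germ cell and axoneme genes in each age 2 (blue) and age 4 (red) library, numbered by replicate, with the mean of each age as a line. Age 2 replicate 1 sits with the age 4 libraries in nanos2, tdrd1, dmc1 and rsph9 and with age 2 in spo11 and dnah3.

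Sertoli cell genes were called in both directions, at shares near those of all genes. Of 24 tested, 4 fell and 2 rose (16.7% and 8.33%, against 12.0% and 6.66%), and without age 2 replicate 1, 9 of 25 fell and 3 rose. The growth factor gsdf, which in fishes is made by Sertoli cells that touch spermatogonia, held 101, 2479, 1934 and 6708 CPM at age 2 and 125, 185, 140.1 and 257 CPM at age 4. Age 2 replicates 2 to 4 lay far above age 4 and replicate 1 below it (-3.99 ± 0.78, adjusted p = 0.013). The androgen receptor gene ar went from 18, 58, 69.1 and 102 CPM to 13.5, 11.6, 13.9 and 19.5 CPM (-2.08 ± 0.38, adjusted p = 0.012, 2 transcripts), and the transcription factor sox9a from 2.4, 20.7, 27 and 13.2 CPM to 2.52, 2.42, 2.88 and 3.62 CPM (-2.46 ± 0.51). In both, age 2 replicate 1 lay among or just below the age 4 libraries.

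Against these, the activin subunit genes rose. For inhbab the levels were 44.2, 35.2, 21.1 and 16.4 CPM at age 2 and 93.1, 136, 123 and 99 CPM at age 4, with no overlap, and replicate 1 stayed on the age 2 side (1.95 ± 0.41, adjusted p = 0.015, and 2.29 without it). Its paralog inhbaa, named after its value was seen, was at 22 to 75.3 CPM and 64.2 to 129 CPM (1.43 ± 0.42). Other Sertoli genes did not pass. Anti-Müllerian hormone, amh, was at 29.2, 120.1, 186 and 219.9 CPM and 78.8, 65.8, 79.3 and 288 CPM, with age 4 replicate 4 the highest of the 8. The junction gene cldn11a (136 to 278 and 125 to 274 CPM) overlapped widely. The follicle-stimulating hormone receptor fshr missed the threshold (-0.92 ± 0.32, adjusted p = 0.057), at 110.1, 229.9, 407 and 470.1 CPM and 173, 171, 152 and 148 CPM, and in it age 2 replicate 1 was the lowest of all.

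Leydig cell and steroid genes showed no common direction, with 4 of 29 higher and 3 lower (median -0.01, a sign that turned to 0.01 with DESeq2 size factors), and with 7 of 30 higher and 5 lower without age 2 replicate 1. The estrogen-forming dehydrogenase gene hsd17b1 rose from 0.801, 0.417, 0 and 0.334 CPM to 4.25, 10.6, 4.74 and 1.67 CPM, with no overlap but on 10 counts at age 2 (3.73 ± 1.05, adjusted p = 0.028). The lipid transfer gene stard14 was at 21.2 to 69.4 CPM and 62.1 to 118 CPM (1.22 ± 0.33). The Leydig cell peptide hormone insl3 held 53.1, 26.8, 20.3 and 6.35 CPM at age 2 and 80.8, 558, 265 and 41.1 CPM at age 4. It missed the threshold (3.15 ± 1.09, adjusted p = 0.054), and age 4 replicate 4 lay below age 2 replicate 1. The cholesterol carrier star, which starts steroid synthesis, was at 23.9, 153, 122 and 202 CPM and 33.3, 129, 77.2 and 70.3 CPM, and the hydroxysteroid dehydrogenase hsd3b1 at 65.6 to 295 and 78.3 to 373 CPM. Neither passed, and in both replicate 1 was the lowest library of either age. Of 21 genes of cholesterol synthesis and uptake 2 rose, sc5d (1.14 ± 0.34) and mvk (1.32 ± 0.43, 3 transcripts), and 0 fell, and without age 2 replicate 1, 7 rose and 1 fell.

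Markers of other somatic cells were mixed. Smooth muscle and peritubular cells had 5 of 30 genes lower and 2 higher, of 24 endothelial genes 3 fell and 2 rose, and of 10 erythrocyte genes 1 fell. The muscle and endothelial shares lay near the 12.0% lower and 6.66% higher of all genes. The endothelial median was -0.69 and the muscle and peritubular median -0.20, against -0.05 over all tested genes. Without age 2 replicate 1, 8 of 30 muscle and peritubular genes were lower and 4 higher, 10 of 25 endothelial genes lower and 2 higher, and 2 of 12 erythrocyte genes lower and 1 higher. Of all genes tested that way 22.3% were lower and 23.3% higher. The actin gene acta2, the usual marker of peritubular cells, was at 1363, 1274, 1989 and 3820.1 CPM and 2294, 2741, 1587 and 2194 CPM and did not pass (0.06 ± 0.40, adjusted p = 0.93). The endothelial receptor kdrl was at 83.5 to 217 CPM and 121 to 211 CPM and did not pass either (0.19). The endothelial markers cdh5 (-0.42), tie1 (-0.68) and tek (-0.49) and the muscle markers cnn1b (0.98) and desmb (0.57) also did not pass. Against that, the pericyte receptor pdgfrb fell (-1.57 ± 0.45), from 54.7, 213, 261 and 500.2 CPM to 60.4, 111, 84.2 and 90.4 CPM, and the actin-binding synpo2b rose (1.43 ± 0.40), from 117, 65.7, 149 and 157 CPM to 335, 403, 378 and 198 CPM. The smooth muscle marker myh11a fell (-2.72), from 0.160, 6.26, 10.9 and 16.2 CPM to 1.26, 1.66, 1.86 and 0.279 CPM. In it age 2 replicate 1 was the lowest library. The endothelial factor egfl7 rose (1.29 ± 0.36) while the vessel junction gene cldn5a fell (-1.85 ± 0.48). The endothelial mean was highest in age 2 replicate 4, at 3.18, 4.05, 4.68 and 5.44 log2 CPM in age 2 replicates 1 to 4 against 3.64 to 4.19 at age 4.

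Genes of the basement membrane and matrix that surround the cysts and tubules were lower where they passed, with few exceptions. Among 72 matrix glycoproteins and proteases 22 fell and 0 rose (median -0.71), and among 57 collagens and collagen enzymes 12 fell and 3 rose (median -0.39). The lower shares were 30.6% and 21.1%, against 12.0% of all genes. The network-forming collagen col4a5 held 86.2, 416, 474 and 575 CPM at age 2 and 73.9, 83.4, 59.5 and 106 CPM at age 4 (-2.26 ± 0.45, adjusted p = 0.014), and its neighbour in the network, col4a6, 56.1 to 371 CPM and 48.4 to 74.6 CPM (-2.09 ± 0.41). The linker nid2a, which ties collagen IV to laminin, fell from 107, 469.8, 477 and 962 CPM to 59.4, 90.6, 58.9 and 151 CPM (-2.48 ± 0.47). In these genes age 2 replicate 1 lay inside the age 4 range and the other 3 lay above all of it. The fibrillin gene fbn2b differed from them, as all 4 age 2 libraries (109, 142, 156 and 268 CPM) lay above all 4 of age 4 (71.5, 58.3, 76.7 and 67.7 CPM; -1.299 ± 0.23). The procollagen protease adamts2a (-1.55 ± 0.30) and the secreted spon1a (-3.55 ± 0.61) also fell. Of 72 cell junction genes 16 fell (22.2%) and 3 rose (4.17%). Without age 2 replicate 1, 33 of 74 matrix genes, 22 of 59 collagen genes and 27 of 73 junction genes were lower, and 5, 7 and 8 were higher. Of all genes tested that way 22.3% were lower and 23.3% higher.

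Developmental signalling pathways had nearly all of their calls on the lower side. In the Notch and Hedgehog pathways, which pattern tissues through contact between cells and through a secreted ligand, 14 of 37 genes (37.8%) fell and 0 rose, against 12.0% and 6.66% of all tested genes. The Notch receptor notch3 stood at 61.7, 209, 250.5 and 420.5 CPM and 42.9, 52.7, 49.6 and 80.4 CPM (-2.06 ± 0.42, adjusted p = 0.015). The DNA-binding partner of the Notch domain, rbpjb, was at 38.6, 55.6, 72.7 and 82.3 CPM and 25.9, 23.2, 16.8 and 30.2 CPM (-1.37 ± 0.26). The targets her6 (-2.84 ± 0.57) and hey2 (-1.72 ± 0.35) fell with them. In rbpjb and hey2 all 4 libraries of age 2 lay above those of age 4, whereas in notch3 replicate 1 lay inside the age 4 range. The Hedgehog genes that passed, smo, ptch1, gli1, gli2a, gli2b and gli3, lay between -3.07 and -1.38 and were listed after their values were seen.

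The Wnt pathway had 15 of 52 genes lower (28.8%, against 12.0% of all genes) and 0 higher (median -0.93). The secreted ligand wnt9b was at 2.24, 60.9, 112 and 11 CPM and 0.943, 2.04, 1.19 and 1.81 CPM (-4.93 ± 0.92), and kremen1, a receptor for the Wnt inhibitor Dickkopf, at 4.33, 46.7, 52.5 and 68.2 CPM and 4.09, 5.61, 2.71 and 6.69 CPM (-3.16 ± 0.59). The planar polarity cadherin celsr3 fell as well (-1.77 ± 0.33). In wnt9b age 2 replicate 1 lay just above every age 4 library, so the ages did not overlap, and far below the other age 2 libraries. In celsr3 age 2 replicate 1 lay at the upper edge of age 4 and not among the other age 2 libraries. Of 52 genes of the TGF-beta, BMP and activin pathway 10 fell and 2 rose, the activin subunit genes inhbab and inhbaa. The signal carrier smad1 had no overlap, at 164, 188, 203 and 261 CPM and 91.5, 57.9, 72.3 and 112 CPM (-1.29 ± 0.25), and the activin receptor acvr1ba fell from 30.5 to 156 CPM to 12.9 to 43.7 CPM (-2.01 ± 0.48). Among 56 genes of FGF, PDGF, VEGF and EGF signalling 12 fell and 0 rose, with nrg2b, a neuregulin ligand, at -2.27 ± 0.50 and the decoy-like FGF receptor fgfrl1a at -0.902 ± 0.23.

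In insulin and IGF signalling 16 of 51 genes fell and 0 rose (median -0.64). The IGF receptor igf1rb held 409, 723, 749.8 and 838 CPM and 300.3, 325, 281 and 336 CPM, all 4 age 2 libraries being above all 4 of age 4 (-1.13 ± 0.20, adjusted p = 0.012). The adaptor irs1, which docks to the active receptor, was at 184, 466, 431 and 465 CPM and 167, 141, 104 and 184 CPM (-1.38 ± 0.26). The kinase gene akt3a further down was at 149.9, 252, 260.1 and 290.1 CPM and 123, 144, 147 and 145 CPM (-0.77 ± 0.18), again with no overlap. The counts without age 2 replicate 1 were 24 of 52 lower and 4 higher for this pathway, 30 of 54 and 3 for Wnt, 21 of 39 and 1 for Notch and Hedgehog, 22 of 55 and 6 for TGF-beta, and 28 of 59 and 6 for FGF and its relatives. Those shares compare with 22.3% lower and 23.3% higher over all genes tested that way.

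Receptors and guidance molecules were also called mostly lower. Of 81 ephrin, semaphorin and other guidance genes 30 fell and 0 rose (median -0.89), and 49 of 82 fell and 3 rose without age 2 replicate 1. The ephrin receptor epha8 was at 1.44, 78.7, 92.5 and 117 CPM and 2.67, 1.53, 1.69 and 2.09 CPM (-5.17 ± 0.85, adjusted p = 0.012), and the secreted guide slit2 at 51.3, 98.8, 118 and 122 CPM and 28.9, 27.3, 34.9 and 36.1 CPM (-1.62 ± 0.29). Replicate 1 separated the genes: it was the lowest of the 8 libraries in epha8 and lay above all of age 4 in slit2 and in ephb3a (35.6 to 51.4 against 9.32 to 18.2 CPM; -1.602 ± 0.27). Of 57 nuclear and hormone receptors 13 fell and 0 rose (28 of 59 and 1 without age 2 replicate 1), among them the vitamin D receptor vdra (-1.204 ± 0.26) and the clock repressor nr1d1 (-1.45 ± 0.34). Retinoic acid, the vitamin A product that in mice starts meiosis, had 3 of 39 genes higher and 5 lower (7.69% and 12.8%, close to the shares of all genes), and 6 and 10 of 40 without age 2 replicate 1. Its receptors rarab (-1.56 ± 0.32) and rxraa (-1.77 ± 0.40) fell and the retinol dehydrogenase gene rdh8b rose (2.43 ± 0.46, 6 transcripts). Ion channels had 56 of 201 genes lower (27.9%, against 12.0% of all genes) and 5 higher (100 of 219 and 25 without age 2 replicate 1). The potassium channel kcnn3 was at 23.2 to 115 CPM and 12.1 to 19.5 CPM (-2.21 ± 0.36). Neuropeptide and amine receptors had 21 of 81 lower and 3 higher (45 of 90 and 7), including the dopamine receptor drd2a (-1.53 ± 0.37).

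Transcription factor families were mostly lower where called. Among 75 Sox, Dmrt, Fox, Gata and Lhx genes 14 fell and 2 rose (36 of 86 and 6 without age 2 replicate 1), with foxp2 at 50.7, 95.1, 99.4 and 129 CPM and 27.4, 20.9, 27.3 and 35.7 CPM (-1.75 ± 0.26) and tcf21, a factor of gonadal stroma in mice, at 1.92, 9.31, 20 and 28.9 CPM and 1.57, 3.06, 3.05 and 2.65 CPM (-2.53 ± 0.57). Of 57 immediate early and Klf genes 18 fell and 2 rose (25 of 58 and 4). klf11a went from 134, 557, 670.3 and 1111 CPM to 99.7, 75.3, 77.2 and 180.0 CPM (-2.52 ± 0.55), with replicate 1 inside the age 4 range, while mycla, an L-Myc gene counted over 4 transcripts, rose from 2.4, 0.278, 0.291 and 0.167 CPM to 7.55, 4.21, 11.2 and 11.1 CPM (3.42 ± 0.63). Of 22 Hox genes and partners 3 fell and 1 rose (13.6% and 4.55%, near the 12.0% and 6.66% of all genes). The riser was hoxd3a (2.01 ± 0.64, 1.11 to 12.2 and 12.3 to 25.4 CPM). Without age 2 replicate 1, 13 of 25 were lower and 3 higher.

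Interferon-induced genes were mostly higher at age 4 where called. Here age 2 replicate 1 lay on the age 2 side of the age 4 range more often than over all genes. Of 25 effectors that cells make in answer to interferon or viral RNA, 10 rose and 1 fell, against 6.66% and 12.0% of all genes. Without that library 11 of 25 rose and 3 fell, against 23.3% and 22.3% of all genes. The excess of higher members over all genes was thus smaller without that library. Of the 14 members called without it, it lay on the age 2 side in 9 (64.3%), against 17.95% over all genes. The share was 62.5% in both the macrophage and the nucleic acid sensor lists, so it was not particular to interferon genes. The mean log2 CPM of the list was 3.46, 4.15, 4.28 and 3.68 in age 2 replicates 1 to 4 and 4.46, 4.77, 5.56 and 4.30 in age 4 replicates 1 to 4, with no overlap. Age 2 replicate 1 had the lowest mean of either age. The induced gene ifit8 stood at 9.3, 11.5, 18.7 and 4.68 CPM and 66, 116, 276 and 30.9 CPM (3.46 ± 0.70, adjusted p = 0.015), and the antiviral GTPase mxa at 16.2, 12.2, 15.3 and 7.86 CPM and 47.5, 48.9, 119 and 33.3 CPM (2.27 ± 0.50). The helicase rigi, which senses viral RNA, was at 37.2, 98, 113 and 59.4 CPM and 237, 381, 616 and 112 CPM (2.13 ± 0.57). Age 4 replicate 3 was the highest library in each of these genes and replicate 4 the lowest of its age, which in rigi put it beside age 2 replicate 3.

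Fold changes of the interferon genes did not need age 2 replicate 1 to be removed: they were 3.46, 2.46 and 1.97 without it for ifit8, mxa and rigi. The RNA helicase dhx58 (40.5 to 67.8 and 96.9 to 232 CPM; 1.401 ± 0.33) and helz2a (3.21 to 6.53 and 8.08 to 62.5 CPM; 2.72 ± 0.62) had no overlap between the ages. The exception, ifi44b, fell (-2.32 ± 0.69, named after its value was seen). Among 33 nucleic acid sensors and adaptors 4 rose and 1 fell (12.1% and 3.03%, against 6.66% and 12.0% of all genes). Without age 2 replicate 1, 6 rose and 2 fell, both below the 23.3% and 22.3% of all genes. The DNA-sensing Toll-like receptor tlr21 was at 8.5, 5.56, 6.99 and 5.68 CPM and 12.9, 32, 60.3 and 13.8 CPM (2.15 ± 0.43, adjusted p = 0.014), with every age 4 library above every age 2 one.

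Macrophage and myeloid genes were called in 7 of 25 cases, all higher, and in 8 of 26, all higher, without age 2 replicate 1. Of all genes 6.66% were higher, and 23.3% without that library. The granulocyte colony-stimulating factor receptor csf3r held 36.5, 22.7, 31 and 24.1 CPM and 65.7, 102, 96.9 and 55.6 CPM, with no overlap (1.49 ± 0.28, adjusted p = 0.013, and 1.70 without replicate 1). The complement subunit c1qb, made by tissue macrophages, held 5.77, 12.6, 17 and 9.36 CPM and 20, 65.2, 53.5 and 24.9 CPM (1.86 ± 0.44), and the scavenger receptor marco 4.01, 0.834, 2.91 and 3.01 CPM and 4.4, 31.9, 20.8 and 3.9 CPM (2.505 ± 0.62). Age 4 replicates 2 and 3 carried most of the gap in marco, and replicates 1 and 4 lay at the level of age 2 replicate 1. The perforin-like marker mpeg1.1 did not pass (5.29 to 8.69 and 3.93 to 22.7 CPM). Among lymphocyte genes 1 of 14 was higher (7.14%, near the 6.66% of all genes), the recombinase rag2 (2.01 ± 0.62), and 0 lower. Without age 2 replicate 1, 3 of 15 were higher and 4 lower. The B cell gene cd79a was at 31.3, 121, 109 and 113 CPM and 60.7, 75.5, 69.1 and 60.7 CPM and did not pass. Of 17 genes of antigen presentation 0 passed in edgeR's quasi-likelihood test on 8 libraries. Without age 2 replicate 1, 3 rose and 0 fell, both below the 23.3% and 22.3% of all genes. Cytokines, chemokines and their receptors had 5 of 67 higher and 4 lower (7.46% and 5.97%, against 6.66% and 12.0% of all genes). Without age 2 replicate 1 the counts were 10 and 10 of 68, both below the 23.3% and 22.3% of all genes. Among those called on 8 libraries, the chemokine ccl34b.4 rose (2.28 ± 0.53) and the receptor ccr9b fell (-1.61 ± 0.42).

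**Figure D4:**
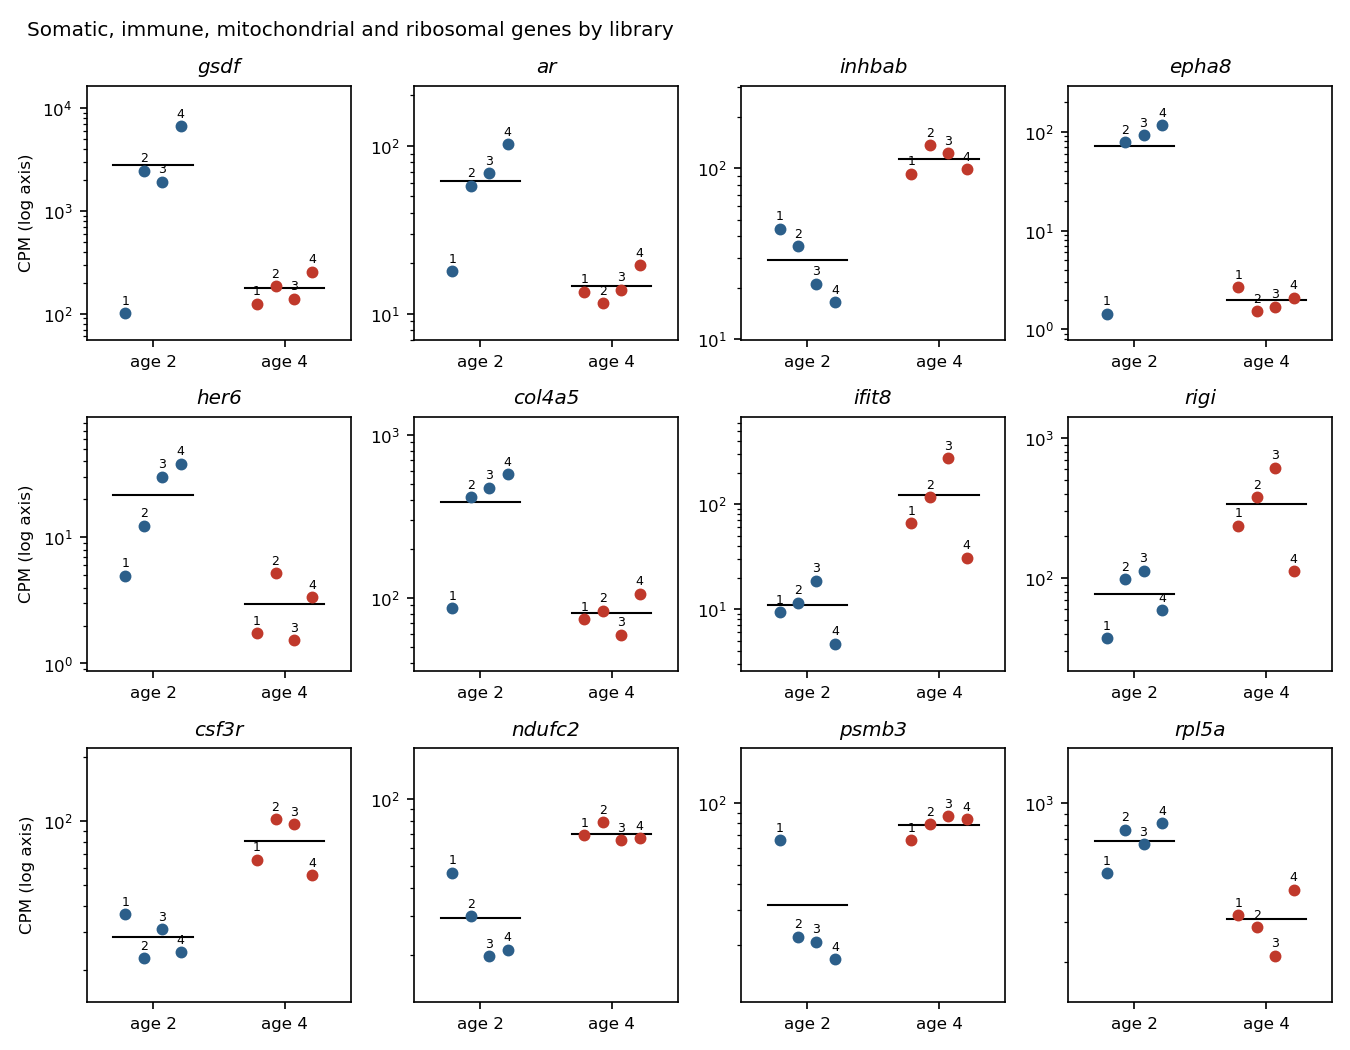
Level in CPM (log axis) of 12 somatic, signalling, immune, mitochondrial, proteasome and ribosomal genes in each age 2 (blue) and age 4 (red) library, numbered by replicate, with the mean of each age as a line. Age 2 replicate 1 sits with age 4 in gsdf, epha8 and col4a5, and with age 2 in inhbab, ifit8, csf3r and rpl5a.

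Ribosomal protein genes and mitochondrial genes were called in opposite directions. Of the cytosolic ribosomal protein genes, 7 of 31 in the small and 11 of 45 in the large subunit fell and 0 rose (18 of 32 and 25 of 45 lower, and 1 and 0 higher, without age 2 replicate 1), with medians of -0.55 and -0.58. The large subunit gene rpl5a was at 491, 766, 662 and 819 CPM and 321, 285, 213 and 417 CPM, with no overlap (-1.15 ± 0.21, adjusted p = 0.013), and rps3a of the small subunit at 623, 972, 814 and 851 CPM and 441, 418, 328 and 542 CPM (-0.92 ± 0.19). Age 2 replicate 1 was the lowest of its age in both but above every age 4 library, and in both age 4 replicate 4 was the highest of its age. For rps10 (471 to 1075 and 338 to 537 CPM; -0.91 ± 0.23) the ages overlapped. Processed copies and paralogs of ribosomal genes can take reads from each other, so single values are less certain. Translation factors had 5 of 61 higher (8.20%, near the 6.66% of all genes) and 1 lower, and 23 higher and 7 lower without age 2 replicate 1. Among the risers were the cap-binding eif4e3 (1.28 ± 0.40) and the exchange factor subunit eif2b1 (0.603 ± 0.19).

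Nuclear genes of the respiratory chain were called higher wherever they passed. In complex I, the entry point for electrons from NADH, 8 of 38 rose, in complex II 2 of 5, and in the ATP synthase 4 of 15, with 0 lower in each. The mean log2 CPM of the complex I genes was 4.47, 3.59, 3.46 and 3.56 in age 2 replicates 1 to 4 and 4.48, 4.50, 4.42 and 4.60 in age 4 replicates 1 to 4. Replicate 1 of age 2 lay within the age 4 range. Without it 31 of 38 rose, 3 of 5 in complex II and 11 of 16 in the ATP synthase, against 23.3% of all genes. In single genes it often took a middle place: ndufc2 held 46.6, 29.9, 19.7 and 21.1 CPM and 68.9, 79, 65.2 and 66.9 CPM (1.25 ± 0.25, adjusted p = 0.014), and atp5po of the ATP synthase stalk 32.2, 17.2, 14.4 and 17.4 CPM and 45.1, 45.8, 37.8 and 47.1 CPM (1.11 ± 0.22). Both separated the ages in all libraries. The membrane anchor of succinate dehydrogenase, sdhc, counted over 12 transcripts, was at 24.6 to 57.1 CPM and 65.2 to 145 CPM (1.395 ± 0.34). Genes of other respiratory complexes were not analysed here.

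The proteasome core had the largest share of called members among the 56 lists on 8 libraries. Of 14 core particle genes, which form the barrel where proteins are cut, 8 (57.1%) rose and 0 fell, and of 27 genes of the regulatory particle and assembly 4 rose and 0 fell. Without age 2 replicate 1 the counts were 13 of 14 and 20 of 28 higher, and 0 and 1 lower. The core subunit psmb3 was at 66, 22.1, 20.8 and 17.1 CPM and 65.9, 78.8, 86.4 and 83.7 CPM (1.32 ± 0.34, adjusted p = 0.021), so that age 2 replicate 1 reached the lowest age 4 library. psma8, a subunit that mammals use mainly in spermatocytes, was at 113, 71.7, 59.3 and 62.4 CPM and 130.0, 125, 129 and 135 CPM, with no overlap (0.76 ± 0.19). The assembly chaperone pomp also separated the ages (58.3, 38.2, 32.3 and 35.6 CPM and 63.5, 104, 84.9 and 116 CPM; 1.17 ± 0.24). Of 92 heat shock proteins and chaperones 11 rose (12.0%, against 6.66% of all genes) and 0 fell (41 of 94 and 3 without age 2 replicate 1). The risers were led by hspa9, the Hsp70 of mitochondria, at 365, 211, 146 and 163 CPM and 383, 423, 469.6 and 469 CPM (0.98 ± 0.24).

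Among enzymes of fuel use most members did not pass. Of 64 genes of glycolysis and the citrate cycle 9 rose (14.1%, against 6.66% of all genes) and 3 fell, and 26 of 66 rose and 7 fell without age 2 replicate 1. The pyruvate dehydrogenase subunit pdha1b, the gate from glycolysis to the cycle, held 302, 107, 94.3 and 111 CPM and 352, 283, 379 and 304 CPM (1.0997 ± 0.32), and citrate synthase, cs, 1.6 to 6.89 CPM and 8.29 to 18.6 CPM (1.99 ± 0.48, 2 transcripts). The fallers included the sugar carrier slc2a11a (-1.74 ± 0.39) and the glucose-6-phosphate isomerase gpib (-1.697 ± 0.49). In fatty acid use 4 of 48 rose (8.33%, near the share of all genes) and 1 fell, and 17 of 51 rose and 6 fell without that library. The mitochondrial carnitine transferase cpt2 was at 60.4, 40.3, 36.3 and 41.5 CPM and 71.9, 77.8, 78.3 and 81.6 CPM (0.79 ± 0.17), and the fatty acid carrier fabp7a at 30.3, 9.87, 4.52 and 6.52 CPM and 74.1, 74, 49 and 75.2 CPM (2.41 ± 0.58), with no overlap in either. Among antioxidant genes 4 of 42 rose (9.52%) and 2 fell, and 12 rose and 5 fell without it. The mitochondrial superoxide dismutase sod2 went from 59.7 to 178 CPM to 175 to 264 CPM (1.21 ± 0.32), and the extracellular sod3a fell from 1.12 to 5.1 CPM to 0.339 to 1.02 CPM (-2.51 ± 0.67).

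Few cell division genes passed on 8 libraries. Of 73 mitotic cell cycle genes 6 rose and 3 fell (8.22% and 4.11%, against 6.66% and 12.0% of all genes), and 38 rose and 7 fell of 74 without age 2 replicate 1. The 3 fallers were the G1 cyclin gene ccnd1, at 14.1, 48, 36.9 and 41.8 CPM and 11.8, 20.5, 13 and 4.6 CPM (-1.49 ± 0.42), its kinase cdk4, at 29.5 to 81.6 CPM and 27 to 38 CPM (-0.96 ± 0.27), and cdk6 (-1.74 ± 0.51). The risers included foxm1, a factor for genes of G2 and M phase (1.88 ± 0.47, 0.291 to 1.12 and 1.52 to 4.34 CPM, 2 transcripts), and the inhibitory kinase pkmyt1 (1.81 ± 0.50, 4 transcripts). cdk6 was named after its value was seen. Of 63 DNA repair and telomere genes 2 rose and 5 fell, both below the shares of all genes. Without age 2 replicate 1, 16 of 65 were higher and 10 lower, against 23.3% and 22.3% of all genes. The fallers included the checkpoint kinase atr at 105, 107, 106 and 123 CPM and 56.1, 57, 32.9 and 76.2 CPM (-0.99 ± 0.22, adjusted p = 0.017). In atr all 4 age 2 libraries, replicate 1 included, lay above all 4 of age 4. Of 105 histone and DNA modifying enzymes 4 rose and 17 fell (3.81% and 16.2%, against 6.66% and 12.0% of all genes). Without age 2 replicate 1 the counts were level, 23 and 22, near the 23.3% and 22.3% of all genes. The fallers on 8 libraries were led by the methyltransferase kmt2bb (265 to 788 and 240.4 to 289 CPM; -1.31 ± 0.27) and the acetyltransferase kat2a (-1.12 ± 0.24). Kinesins and tubulins had 3 of 62 higher and 13 lower (4.84% and 21.0%) with a median of 0.20. Without age 2 replicate 1 the balance turned to 25 of 63 higher and 18 lower, against 23.3% and 22.3% of all genes. The fallers on 8 libraries with the smallest p were kif26aa (5.93, 129, 120.2 and 69.7 and 6.29, 7.02, 4.57 and 5.01 CPM; -3.82 ± 0.61) and the related kif26ba and kif26bb.

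The largest differences without overlap were in genes of mixed function. The secreted peptide prok2 was at 6.09, 1.81, 1.31 and 0.167 CPM and 13.7, 93.7, 50.1 and 6.27 CPM (4.12 ± 1.32, adjusted p = 0.041), a gap that rested mainly on age 4 replicates 2 and 3. The calcium-binding cabp2a rose from 0.729 to 1.95 CPM to 2.79 to 14.2 CPM (2.79 ± 0.59), and the serine incorporator gene serinc1 (2 transcripts) from 254, 20.4, 14.6 and 3.51 CPM to 389, 482, 754 and 299 CPM (2.72 ± 0.89). In serinc1 age 2 replicate 1 lay below the lowest age 4 library and far above the rest of its age. Among the falls, the bestrophin channel best4 was at 2.89, 31.4, 13.7 and 13.4 CPM and 0.629, 0.893, 1.36 and 0.836 CPM (-4.03 ± 0.66), and the co-repressor skor2 at 3.69, 9.45, 12.5 and 4.85 CPM and 0.629, 1.15, 0.678 and 1.25 CPM (-3.002 ± 0.45). The receptor phosphatase ptprua also separated the ages, with age 2 replicate 1 inside the range of its own age, at 23.9, 20.4, 33.2 and 18.6 CPM against 0.472, 3.44, 3.05 and 5.57 CPM (-2.92 ± 0.82).

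Across libraries, 5 of the 56 list means separated the 4 age 2 from the 4 age 4 libraries: interferon-induced effectors, lymphocytes, complex II, the proteasome core, and fatty acid use and lipid transport. Of single genes, 4.94% lay above and 4.47% below age 2 with no overlap. The gap was narrow for interferon-induced effectors (highest age 2 mean 4.28, lowest age 4 mean 4.30) and for lymphocytes (2.85 and 2.97). For the proteasome core the means were 5.73, 4.61, 4.31 and 4.63 log2 CPM at age 2 and 5.77, 5.78, 5.76 and 5.92 at age 4. Without age 2 replicate 1 the ages separated in 38 lists. The range of the age 4 libraries was narrow in some lists and wide in others. Age 4 replicate 4 had the lowest means of the sperm tail lists, and the highest of the immediate early and Klf factors (4.14, 4.32, 4.59 and 5.09 in age 4 replicates 1 to 4) and of both ribosomal protein lists (7.41, 7.64, 7.22 and 8.19 for the large subunit). Age 4 replicate 3 had the lowest means of those ribosomal lists, the lowest share of ribosomal RNA and the highest interferon mean.

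**Figure D5:**
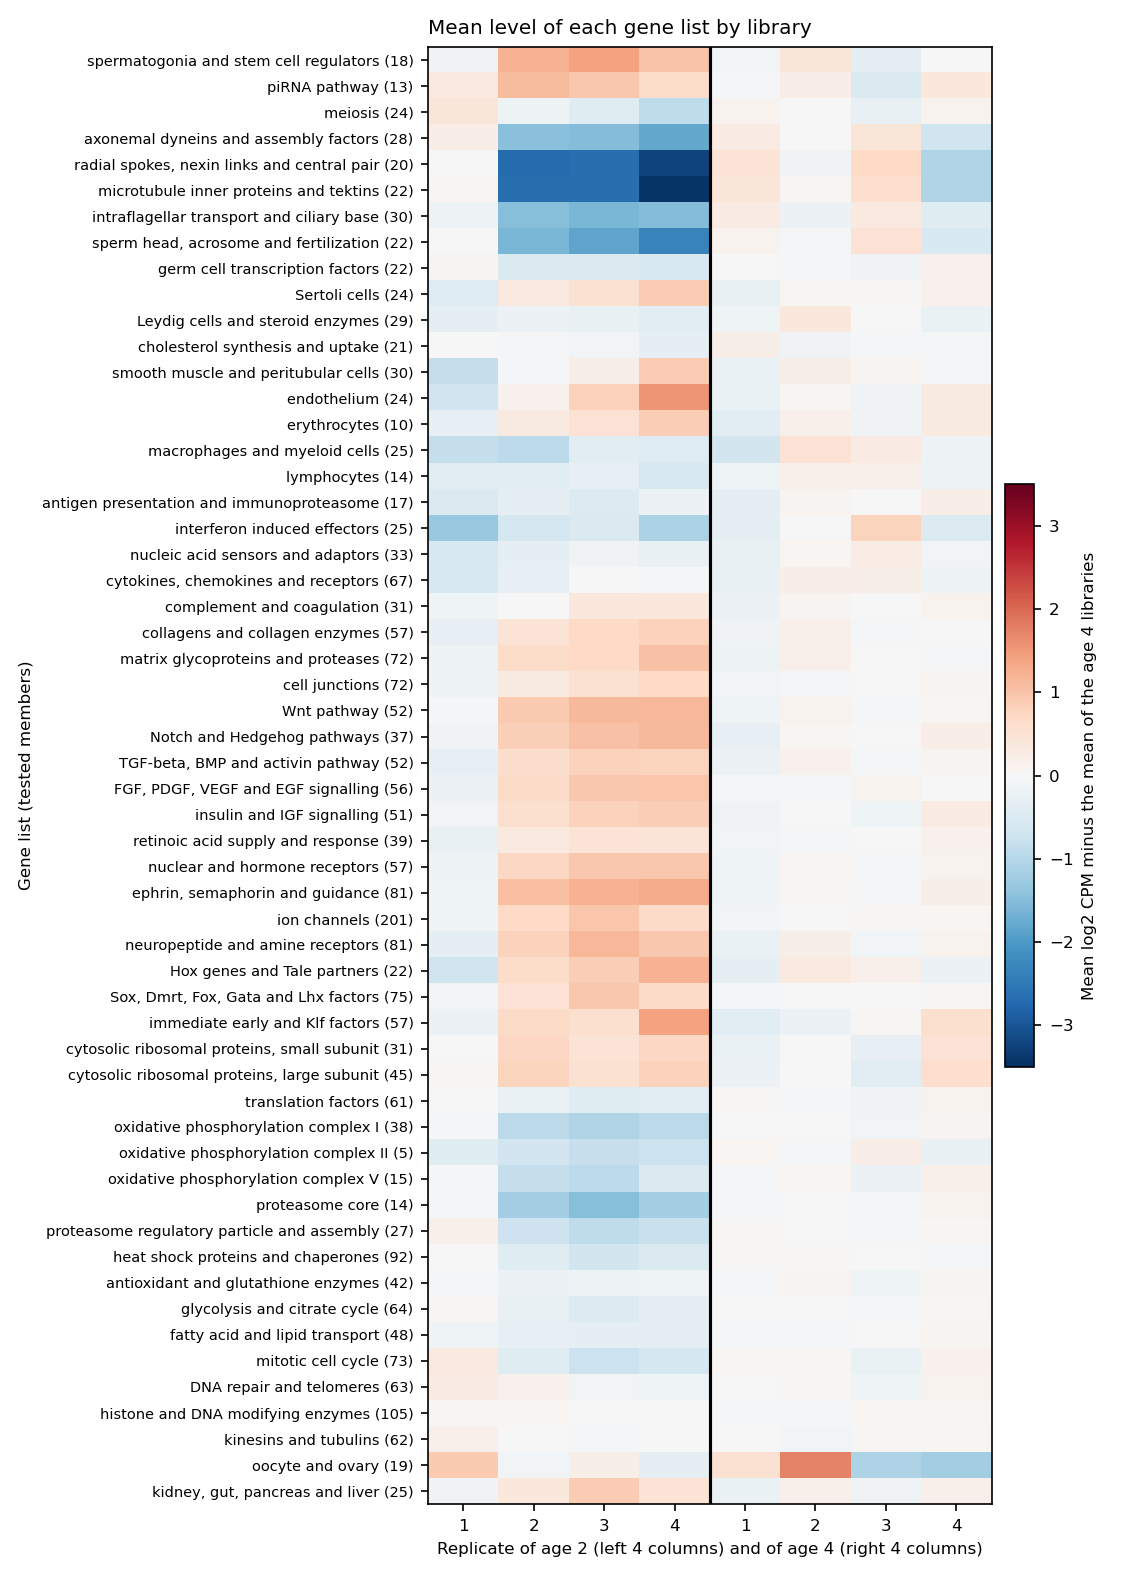
Mean log2 CPM of the tested members of each gene list in each library, minus the mean of the 4 age 4 libraries (colour scale); rows are lists with the number of tested members, columns are age 2 replicates 1 to 4 and age 4 replicates 1 to 4. Age 2 replicate 1 lies inside the age 4 range in 26 of 56 lists, and the oocyte list differs most among the age 4 libraries.

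For oocyte genes the spread among age 4 testes enclosed that of age 2. Of 19 tested, 0 passed edgeR's quasi-likelihood test, and 4 rose and 2 fell without age 2 replicate 1. Their mean log2 CPM was 3.46, 2.44, 2.74 and 2.20 in age 2 replicates 1 to 4 and 3.08, 4.28, 1.46 and 1.32 in age 4 replicates 1 to 4. The egg gene btg4, which in mice clears maternal mRNA, was at 8.34, 0.278, 0.291 and 0.167 CPM and 6.76, 28.7, 0.678 and 0 CPM, and zar1, a maternal effect gene, at 10.3, 7.51, 4.95 and 6.02 CPM and 8.18, 22.4, 0.678 and 1.11 CPM. The oocyte growth factor gdf9 was at 6.41, 9.73, 12.4 and 8.69 CPM and 3.62, 15.6, 2.03 and 3.9 CPM. Age 4 replicate 2 was the highest of its age in all 3 genes, and replicates 3 and 4 were low or at 0 in btg4 and zar1. Of 25 tested genes of kidney, gut, pancreas and liver, a check on neighbouring tissue, 2 were higher (8.0%) and 4 lower (16.0%). These shares lay near the 6.66% and 12.0% of all genes, but the median log2 fold change was -0.63 against -0.05 over all tested genes. Without age 2 replicate 1, 4 of 27 were higher and 11 lower, against 23.3% and 22.3% of all genes. The median was then -0.82, against 0.02 over all genes. The markers slc12a3, cdx1b, apoa1a and fabp10a held too few counts to be tested (16, 21, 33 and 38 over the 8 libraries). The kidney salt carrier slc12a1 was at 0.321, 23.1, 21.3 and 14.7 CPM and 0.629, 2.42, 1.69 and 0.696 CPM (-3.42 ± 0.91), so that age 2 replicates 2 to 4 lay high and replicate 1 lay below every age 4 library. The pancreatic amylase amy2a was also highest in age 2 replicates 2 to 4, with replicate 1 inside the age 4 range (0.962, 10.6, 8.45 and 6.19 and 2.04, 0.765, 1.36 and 1.53 CPM; -2.195 ± 0.62). The list member slc5a1 fell with no overlap, so there age 2 replicate 1 lay above every age 4 library. The part of RNA from neighbouring tissue in the lower levels at age 4 was not tested.

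The testis at age 4 was also set against the mean of ages 7 and 9. In that comparison 0 of 15979 genes passed edgeR's quasi-likelihood test, 1030 had an unadjusted p under 0.05, and DESeq2 called 28 and limma voom 3. The age 4 and the age 7 and 9 comparisons with age 2 share the age 2 libraries, so their likeness is no separate evidence. Side by side, gsdf was at 2806 ± 2793, 177 ± 59.4, 169 ± 77.6 and 356 ± 127 CPM (mean ± SD, n = 4 each) at ages 2, 4, 7 and 9. For dynlrb2 the levels were 33.2 ± 18.9, 124 ± 44.5, 127 ± 23.5 and 104 ± 15.9 CPM in the same order. The interferon gene ifit8 was at 122 ± 108, 111 ± 75 and 350.0 ± 154 CPM at ages 4, 7 and 9, and age 4 minus the mean of 7 and 9 was -0.69 (adjusted p = 0.873). For spo11 the levels were 43.7 ± 4.67, 29.4 ± 11.1 and 19.8 ± 7.31 CPM at ages 4, 7 and 9 (0.85, adjusted p = 0.652), and for ndufc2 70 ± 6.17, 47.4 ± 7.98 and 41.8 ± 6.31 CPM (0.65, adjusted p = 0.625). None of these differences passed, which does not show that the ages are alike. In list means, the 4 age 4 libraries (5.76 to 5.92 log2 CPM) overlapped the 8 older ones (5.26 to 5.79) even for the proteasome core, and the radial spoke list spanned 3.84 to 5.58 at age 4 and 3.82 to 5.75 at ages 7 and 9.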

How the data were processed

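Total RNA of whole testis was sequenced in 16 libraries, of which 8 (ages 2 and 4) are described and all 16 entered the model. The deposited values are raw fragment counts per transcript, made by the authors. The submitters' processing notes name STAR 2.7.5, HTSeq 0.11.1, Trimmomatic 0.39 and edgeR 4.4.2, next to the quality tools MultiQC 1.10.1 and FastQC 0.11.9; the genome build, strand setting and role of each tool were not given in the sources used here. Counting per transcript leaves out fragments shared by transcripts of 1 gene, and overlapping, antisense and near-identical genes cannot be told apart. Summary lines held 65.2% to 76.2% of fragments and were left out. Counts of 50072 transcripts were summed to 26356 gene symbols. Of the transcripts 48916 matched a RefSeq table of assembly Billie_1.0, which holds no sequences, so none are shown.

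Genes were kept by filterByExpr (minimum count 10, total 15) and scaled by TMM. A model by age over all 16 libraries was fitted in R 4.3.3, and quasi-likelihood tests of edgeR 4.0.16 on it were two-sided and Benjamini-Hochberg adjusted over all genes. The spread between fish of 1 age, shared by all ages, sets the p-values. No library of age 2 or age 4 was a duplicate of another of its own age. Pairs of libraries from different ages, and pairs within the older ages, were not checked. Log2 CPM used a prior count of 2. Code was tested on simulated counts. The members and lists were chosen with earlier results of these data known, and 2 lists were corrected for wrongly matched symbols after the files were read.

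Genes named were, per list, up to 4 called members with the smallest p plus members among 89 markers (48 tested), and the 20 largest changes in each direction among called genes without overlap, at 1 CPM or more, with a gene symbol; others are marked as named after their values were seen. Unnamed LOC genes and some others were tested and counted but are not reported here by name. Alternatives, fixed or added later, used DESeq2 1.42.0 and limma 3.58.1; python 3.11.15, numpy 2.4.6, pandas 2.3.3 and matplotlib 3.10.9 made summaries and figures.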

Additional observations from a re-analysis of the deposited data

Results flagged for a closer look

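Among 214 sets of 4 libraries of 1 age tested, 20 held a library far from the rest by Dixon's ratio. For a single set chance alone gives about 1 in 20. The sets share the same libraries and are not independent, so that rate is no test of the 20. At age 2 the library far from the rest was replicate 1 in all but 1. Its mean log2 CPM was 5.211 for axonemal dyneins and assembly factors (3.194 to 3.531 in replicates 2 to 4), 4.104 for intraflagellar transport (2.675 to 2.803), 3.641 for germ cell transcription factors (2.963 to 3.028), 4.468 for complex I (3.459 to 3.594) and 6.265 for the proteasome regulatory particle (5.212 to 5.351). In single genes it held 147.5 CPM of dmc1, 760.0 of rsph9, 25.01 of dnali1, 1.122 of spata18 and 8.335 of btg4, each above the rest, and 31.26 CPM of cd79a, below the other 3 (109.1 to 121.5). The exception was c1qa, at 14.21 CPM in age 2 replicate 4 and 8.015 to 8.757 in the others.

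At age 4 the libraries far from the rest were mixed. Replicate 4 held 287.8 CPM of amh (65.81 to 79.28 in the others), 9.472 of nanos2 (1.02 to 2.371) and 1.811 of tekt1 (6.25 to 7.076). Thus the age 4 testis with the lowest sperm tail means also held the most amh and nanos2. Replicate 2 held 15.56 CPM of gdf9 (2.033 to 3.9), 8.673 of bmp15 (2.368 to 3.145), 5.995 of figla (3.482 to 3.774) and 320.1 of desmb (148.9 to 172.8). Replicate 1 had the lowest mean of the Sox, Dmrt, Fox, Gata and Lhx factors, 2.371 against 2.47 to 2.488.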

How the results depend on the processing

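The number of called genes depended strongly on the fit. Against 1065 higher and 1914 lower genes, a required log2 fold change above 1 gave 0 and 0, the libraries of ages 2 and 4 alone gave 0 and 0 (4226 genes at an unadjusted p under 0.05), DESeq2 gave 1734 higher, and limma voom with quality weights, in which age 2 replicate 1 had the lowest weight of all 16 libraries (0.120), gave 3648 higher and 4213 lower. Leaving out 1 library at a time gave 0 to 3875 higher and 1 to 3706 lower. For age 4 against ages 7 and 9, DESeq2 called 28 genes, limma voom 3 and the omission of 1 library 0 to 2. DESeq2 size factors, upper quartile scaling, other filters and a fit without mitochondrial and ribosomal RNA genes stayed within 1.5 times the counts given. A fit of genes with 1 transcript alone gave 829 higher and 1538 lower, against 694 and 1681 of such genes in the main fit. That fit leaves out the less certain genes with several transcripts. In it higher members went from 7 to 1 for transport and from 3 to 1 for radial spokes and for tektins. They went from 3 to 0 for sperm head genes, 2 to 0 for germ cell transcription factors and 4 to 3 for dyneins. The labels do not say whether a replicate number links libraries of different ages. Same-numbered libraries of ages 2 and 4 correlated in their deviations at 0.41, 0.11, -0.08 and 0.34, and replicates 1 and 4 alone correlated best with their own number. With so few libraries of each age these values cannot settle it. With the replicate block 1430 genes were higher and 1769 lower, 0 differed from ages 7 and 9, and without age 2 replicate 1 the replicate block gave 3504 and 3338. The replicate block also raised the higher members of the dynein list from 4 to 11, of radial spokes from 3 to 9, of tektins from 3 to 6, of transport from 7 to 12 of sperm head genes from 3 to 10 and of the proteasome regulatory particle from 4 to 10. Of 222 called genes named by the rule all kept their call and direction without age 2 replicate 1. That fit called 7581 genes against 2979, so keeping a call in it is a weak check. With another library left out, calls were lost in 846 of 1554 cases, and under the other settings in 490 of 2385, and no setting reversed one. Directions turned only in genes that had not passed, for causes not tested. In limma voom hsd3b1 was -0.51 and zar1 -0.26 (zar1 was -0.12 with the replicate block), and piwil2 was 0.029 without a filter. With 1 library left out the log2 fold change ran from -0.12 to 0.55 in acta2, -0.873 to 0.24 in amh, -0.66 to 0.30 in cdh5, -0.31 to 0.071 in cldn11a, -0.24 to 0.56 in cldn11b, -0.24 to 0.40 in hsd3b1, -0.26 to 0.22 in piwil2, -0.066 to 0.47 in sycp3 and -1.08 to 0.57 in zar1. In the smallest library of the 8, 3 counts equal 0.572 CPM, so levels below that are not firm.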
